A study of Homo sapiens with 24 samples.

Results

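HCT116 is an established human colorectal cancer line. After APR-246 plus irradiation, RNA of its P53 Mutant version was compared with RNA of its P53 Null version over every gene in the files. The 4 libraries, 2 per line, were chosen by their labels alone, out of 24 libraries in the series. The series holds 3 lines (P53 wild type, called WT below, Mutant and Null), each given a solvent control, APR-246 at 20 uM, irradiation at 6 Gy, or APR-246 plus irradiation, and cells were taken 72 hours after the exposure. The medium was McCoy 5A throughout, supplemented with 10% FBS, penicillin and streptomycin, and oligo(dT)-selected RNA was read on a BGIseq500. Both groups of the comparison therefore received 20 uM APR-246 and 6 Gy, and they differ only in the line. How the lines were made is not given in the sources used here. Each p53 status is a single line, so the status of p53 and other differences between the lines cannot be told apart. The labels number the replicates without saying whether they are separate cultures, so p-values measure the spread between these samples, which may be technical.

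p53 is a transcription factor that responds to DNA damage by inducing genes of cell cycle arrest, repair and cell death. Missense mutants usually keep an abundant but altered protein, whereas null cells make none. APR-246 (eprenetapopt) is converted to a compound that binds cysteines, and it was developed to refold mutant p53. It also reacts with glutathione. Colorectal epithelial cells hold themselves together with cadherin junctions, claudins and keratins under factors such as GRHL2 and OVOL1, while factors such as TWIST1 favour a mesenchymal state with vimentin and matrix proteins.

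Depth was even, from 53184139 to 58058729 reads per library over the series, and 54268877 to 55800742 in the 4 libraries compared. Null library 2 stood apart from the other 3 compared. It lay at one end (84.5) of the first principal component of all 24 libraries, which held 45.4% of the variance. Mutant solvent library 1 lay at the other end (-86.8). Of the 4 libraries compared, Null library 2 had the steepest slope of expression on gene GC content (0.0645 log2 units per GC percentage point, against -0.0158 in Null library 1 and -0.0197 and 0.0228 in Mutant). It detected 22919 genes, against 26047 to 27561 in the other 3 libraries. Outside the comparison some libraries had as few, for example 22125 in Mutant APR-246 library 2. Results below are given with all 4 libraries unless stated.

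Under the combination 156 genes were higher in Mutant than in Null and 189 were lower, at a Benjamini-Hochberg adjusted p under 0.05 over 20668 genes (limma on log2 of scaled CPM + 0.5, where CPM are reads scaled to a fixed total of reads assigned to genes, and whether reads were counted by strand is not given in the sources used here). That is 0.755% and 0.914% of the genes tested, 1.67% together. All 345 genes had libraries that did not overlap, which held for 30.4% of all genes tested. They included 276 protein-coding genes, 29 long intergenic RNAs and 21 antisense RNAs, the last of which cannot be told apart from their partners without strand. The median difference over all genes was 0.04, and 0.15 with CPM as deposited, a shift of 0.11 in that median. The shift was not the same for all genes. The median over ribosomal protein genes, for example, went from -0.34 to -0.15, and that over p53 target genes from -0.05 to 0.07. Leaving out Null library 2 left 118 calls, 109 of them among the 345. Without Mutant library 1 there were 117 calls, without Mutant library 2 there were 105, and without Null library 1 there were 196. A total of 70 genes kept the call without any 1 of the 4. Of the 24 genes described next (the 12 largest differences each way among genes with a symbol and a mean of at least 1 CPM in either group), 17 did so.

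**Figure D1:**
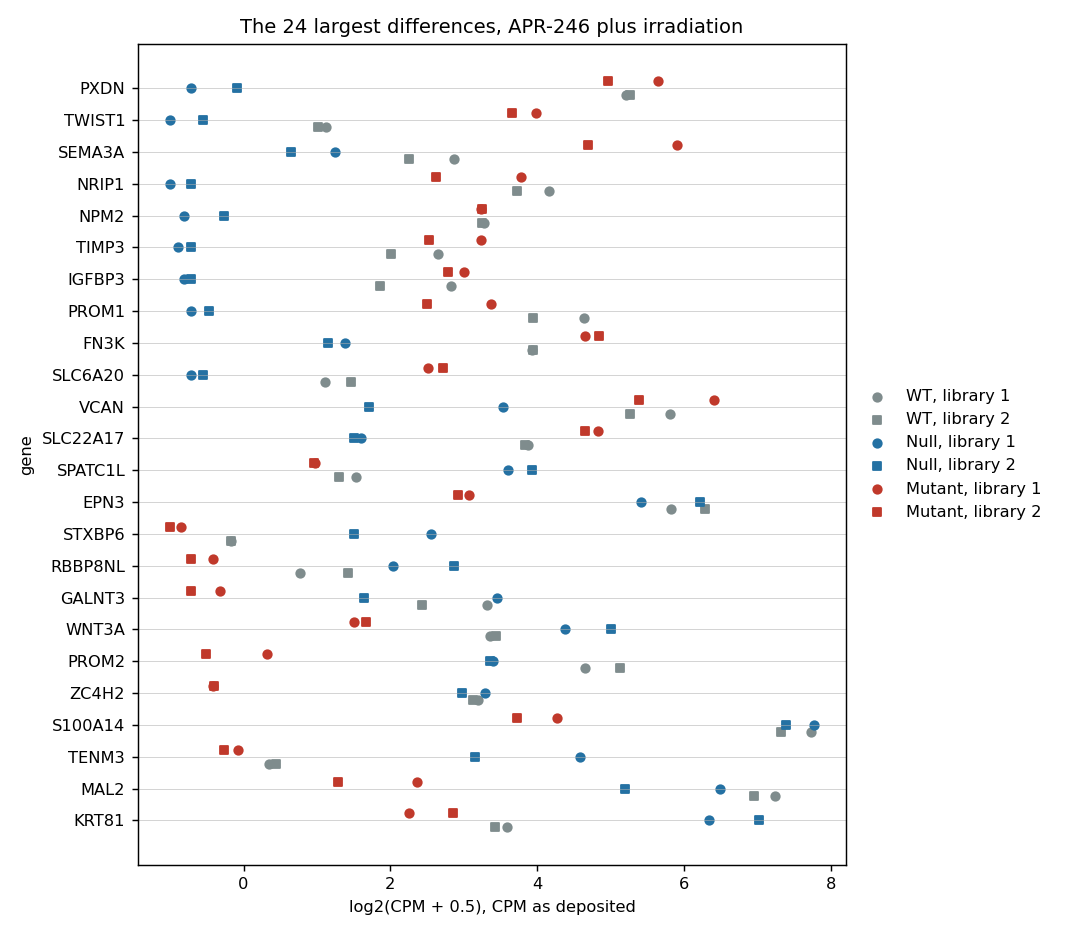
Levels of the 12 largest differences in each direction under APR-246 plus irradiation, as log2(deposited CPM + 0.5), with circles for library 1 and squares for library 2 of Mutant (red), Null (blue) and WT (grey). In every row both red points lie on one side of both blue points, and the grey points lie near red in some rows (PXDN, NPM2, TENM3) and near blue in others (S100A14, ZC4H2, MAL2).

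Of the 12 largest differences on the higher side, 5 were in genes of the extracellular matrix or of secreted proteins, grouped here by known role. PXDN (chromosome 2, 1631887 to 1744852), the peroxidase that cross-links type IV collagen in basement membranes, stood at 49.2 and 30.7 CPM in Mutant and at 0.109 and 0.442 CPM in Null. Both Mutant libraries were far above both Null libraries, by 145-fold in mean CPM, and the fitted difference was 5.53 ± 0.29 (adjusted p = 4.04e-08). SEMA3A, a secreted guidance cue of axons and vessels, reached 59.5 and 25.3 CPM against 1.88 and 1.07 CPM (4.19 ± 0.58, adjusted p = 0.000976). The lower Mutant library was still above both Null libraries. VCAN, which encodes the matrix proteoglycan versican, was at 84.3 and 41.2 CPM against 11.1 and 2.78 CPM (3.10 ± 0.56, adjusted p = 0.00807). Its 2 Null libraries lay far apart, and the call was lost without Mutant library 1 (2.77, adjusted p = 0.116) or Null library 2 (2.43, adjusted p = 0.149). TIMP3, a matrix-bound inhibitor of metalloproteinases, gave 8.92 and 5.24 CPM against 0.0365 and 0.111 CPM (3.56 ± 0.25, adjusted p = 1.17e-06). IGFBP3, the main carrier of insulin-like growth factors in blood, gave 7.49 and 6.42 CPM against 0.073 and 0.111 CPM (3.54 ± 0.29, adjusted p = 3.44e-06). Both were close to the detection limit in Null, where 3 reads correspond to 0.0547 CPM in library 1.

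The other genes of the 12 have other known roles. TWIST1 (chromosome 7, 19020991 to 19117672), a basic helix-loop-helix factor of the mesenchymal state, was at 15.2 and 12.2 CPM in Mutant and at 0 and 0.184 CPM in Null (4.45 ± 0.32, adjusted p = 1.17e-06). WT cells, at 1.68 and 1.52 CPM, had little of it. NRIP1, a corepressor of nuclear receptors, was at 13.2 and 5.63 CPM against 0 and 0.111 CPM (3.92 ± 0.61, adjusted p = 0.00252), and just missed the threshold without Mutant library 1 (3.51, adjusted p = 0.0517). NPM2, a histone chaperone best known from oocytes, had 8.91 and 9.02 CPM against 0.073 and 0.332 CPM (3.62 ± 0.34, adjusted p = 1.67e-05). PROM1, the stem cell surface protein CD133, was at 9.87 and 5.13 CPM against 0.109 and 0.221 CPM (3.39 ± 0.40, adjusted p = 0.000217). The transporter genes SLC6A20 (3.12 ± 0.29) and SLC22A17 (3.01 ± 0.41) were both higher in Mutant, at 5.18 and 6.07 CPM and at 28.0 and 24.5 CPM, with no overlap with Null. FN3K, which removes sugar adducts from proteins, was higher by 3.31 ± 0.51 (adjusted p = 0.0026), and without Mutant library 2 by 3.04 (adjusted p = 0.0513).

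KRT81 (chromosome 12, 52285913 to 52291534), a hard keratin, had the largest difference on the lower side. It stood at 4.28 and 6.71 CPM in Mutant and 80.3 and 129.5 CPM in Null. Both Null libraries were at least an order of magnitude above both Mutant libraries (-4.30 ± 0.61, adjusted p = 0.00124). KRT81 has near-identical neighbours in the type II keratin cluster of chromosome 12, so its count is uncertain. MAL2 (chromosome 8, 119165034 to 119245673), which moves proteins to the apical surface of epithelial cells, was at 4.66 and 1.94 CPM against 89.1 and 36.0 CPM (-4.19 ± 0.50, adjusted p = 0.000239). S100A14, a calcium-binding protein of epithelia, was at 18.8 and 12.7 CPM against 217 and 167 CPM, 12.2-fold lower in Mutant (-3.77 ± 0.39, adjusted p = 4.56e-05). PROM2, a protein of membrane protrusions and a relative of PROM1, was at 0.753 and 0.202 CPM against 9.98 and 9.69 CPM (-3.62 ± 0.36, adjusted p = 2.51e-05). The 2 prominin genes thus lay on opposite sides of the comparison. GALNT3, which starts O-linked glycans, was at 0.305 and 0.11 CPM against 10.5 and 2.62 CPM (-3.18 ± 0.40, adjusted p = 0.000394). EPN3, an epsin of endocytosis, was at 7.87 and 7.06 CPM against 42.0 and 73.9 CPM (-3.01 ± 0.56, adjusted p = 0.0104).

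TENM3, a teneurin that joins neighbouring cells, was at 0.448 and 0.33 CPM in Mutant against 23.4 and 8.37 CPM in Null (-4.17 ± 0.30, adjusted p = 1.17e-06). ZC4H2, a zinc finger gene on chromosome X, was at 0.251 and 0.257 CPM against 9.31 and 7.37 CPM (-3.66 ± 0.26, adjusted p = 1.17e-06). STXBP6, which binds the membrane fusion machinery, was at 0.0538 and 0 CPM against 5.35 and 2.34 CPM (-3.04 ± 0.24, adjusted p = 3.14e-06). For each of these 3 genes every Null library exceeded every Mutant library several times over. WNT3A, a ligand of the canonical WNT pathway, was at 2.33 and 2.68 CPM against 20.2 and 31.5 CPM (-3.27 ± 0.60, adjusted p = 0.00922). RBBP8NL (-3.14 ± 0.59) and SPATC1L (-2.96 ± 0.57) complete the 12. The calls of EPN3, WNT3A, RBBP8NL and SPATC1L were lost without Mutant library 1, Mutant library 2 or Null library 2, with adjusted p-values of 0.0556 to 0.172, and were kept without Null library 1. Their differences stayed negative throughout, the smallest being -2.34 (EPN3 without Null library 2).

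The epithelial and mesenchymal lists showed calls in both directions. The median of 27 mesenchymal genes tested was 0.12 (-0.01 without Null library 2 and 0.02 without Mutant library 2) against 0.04 for all genes. Of the 27, 4 were called higher in Mutant and 2 lower, where 1.67% of all genes were called. Beside TWIST1 these were S100A4, a calcium-binding protein of motile cells (2.84 ± 0.47, adjusted p = 0.00454), VIM, the intermediate filament vimentin (1.99 ± 0.43, adjusted p = 0.024), and SPARC, a secreted matrix protein (1.87 ± 0.39, adjusted p = 0.0184). S100A4 was at 237 and 303 CPM in Mutant against 31.2 and 33.9 CPM in Null, with no overlap. MMP14, a membrane-bound collagenase, lay on the other side (7.65 and 6.4 CPM against 47.5 and 40.1 CPM, -2.74 ± 0.24, adjusted p = 9.55e-06), as did FN1, fibronectin (-1.94 ± 0.36, adjusted p = 0.0106). The list therefore did not shift as one. In the other 3 treatments 5 of its members were called higher and 3 lower (29.6%, against 8.68% of all genes). S100A4 lost its call without Mutant library 2 or Null library 1 (adjusted p = 0.0874 and 0.0569), as did FN1 (0.159 and 0.124). VIM and SPARC lost theirs without any 1 library (0.123 to 0.197 and 0.0591 to 0.207). VIM also overlaps the antisense gene VIM-AS1, which was called in the same direction.

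Of 33 genes of epithelial junctions and keratins, 2 were lower in Mutant and 1 was higher, and 25 differences were negative (median -0.49). In the other 3 treatments 7 were lower and 1 higher (24.2% of the list, against 8.68% of all genes), and with the GC slope of each library as a covariate 12 were lower and 4 higher under the combination (48.5%, against 10.0% of all genes). GRHL2, a factor that maintains epithelial junction genes, was at 4.09 and 1.83 CPM against 28.4 and 11.7 CPM (-2.70 ± 0.34, adjusted p = 0.000407). Both Mutant libraries were below both Null libraries. OVOL1, a zinc finger repressor of the mesenchymal state, was lower by the fit (-2.41 ± 0.44, adjusted p = 0.0089), though not without Mutant library 2 (-2.20, adjusted p = 0.113) or Null library 2 (-2.26, adjusted p = 0.107). KRT23 was the higher one (1.73 ± 0.25, adjusted p = 0.00137). The junction genes CDH1 (E-cadherin, -1.36 ± 0.40, adjusted p = 0.135) and CLDN7 (a claudin, -1.39 ± 0.41, adjusted p = 0.137) were not called. Among 17 kallikreins and serine proteases, 2 surface or secreted enzymes of epithelia were lower, TMPRSS4 (-2.64 ± 0.33, adjusted p = 0.000407) and PRSS22 (-2.83 ± 0.38, adjusted p = 0.000799), and the list median was -0.70. That median rested on single libraries (-0.16 without Null library 2, -0.38 without Mutant library 1 and -0.94 without Mutant library 2). Bulk RNA cannot tell fewer cells of one state from less RNA per cell.

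The same line difference could be read in 12 libraries outside the comparison, the 6 Mutant and 6 Null libraries of solvent, APR-246 and irradiation. They did enter the fit that set the spread, scaling and filter for the 345 calls, so the 2 sets of calls are not independent. In these 12 libraries 853 genes were higher (4.13% of the genes tested) and 941 lower (4.55%) in Mutant, 8.68% together. Of the 345 genes called under the combination, 312 were called in the same direction, which is 90.4% of the 345 and 17.4% of the 1794 called there. The sign was the same for 342, and the other 3 were near 0 in one of the 2 sets. For 246 of the 345 (71.3%; 120 higher and 126 lower), all 6 Mutant libraries lay on one side of all 6 Null libraries in the same direction. Such separation, in either direction, held for 4.57% of all genes tested. It held for each of the 24 genes described above. PXDN, for example, ran from 22.3 through a median of 38.9 to 49.0 CPM in those Mutant libraries and from 0.143 through 0.194 to 0.559 CPM in Null. KRT81 ran from 1.39 through 3.44 to 6.04 CPM in Mutant and from 27.6 through 56.7 to 81.7 CPM in Null. Over the 345 genes the median size of the difference was 1.5 under the combination and 1.37 elsewhere, where the genes had not been chosen by their difference. The Pearson correlation between the 2 sets of differences was 0.976 over the 345 genes and 0.801 over all genes tested, as a description, since genes share libraries.

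**Figure D2:**
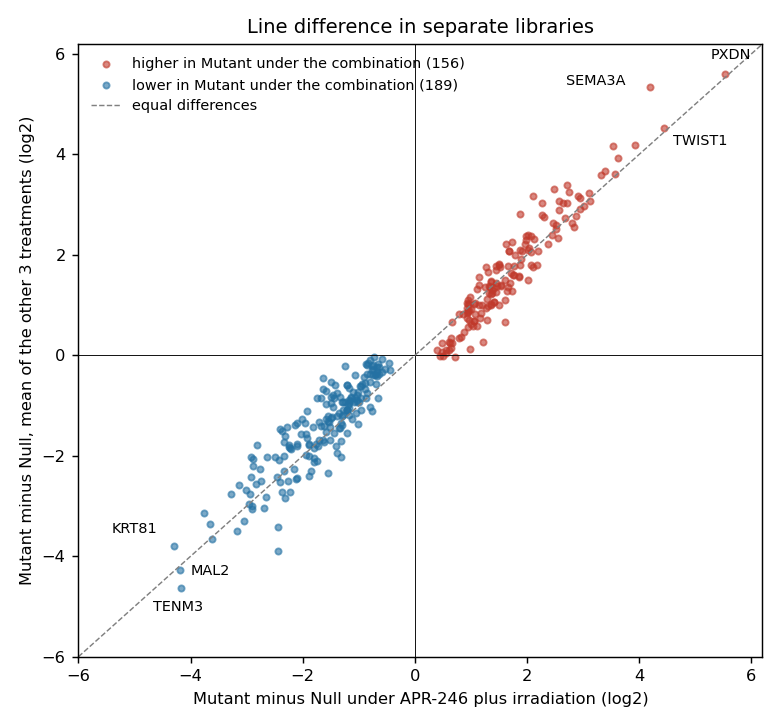
Each point is 1 of the 345 called genes, with the Mutant minus Null difference (log2) under APR-246 plus irradiation on the horizontal axis and its mean over solvent, APR-246 and irradiation, from separate libraries, on the vertical axis. Points called higher (156, red) and lower (189, blue) lie near the line of equal differences, with SEMA3A above it.

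WT cells under the combination, in 2 further libraries, showed on which side a further line lay. WT lay nearer Mutant for 152 of the 345 genes (at 0.667 or more of the way from Null to Mutant), nearer Null for 105 (at 0.333 or less), and between for 88. So more of the called genes had WT on the Mutant side, and no group held all of them. PXDN (36.6 and 37.8 CPM in WT), NPM2 (9.16 and 8.97), NRIP1 (17.3 and 12.7) and PROM1 (24.3 and 14.8) were present in WT and nearly absent in Null. TENM3 (0.778 and 0.853 CPM in WT), STXBP6 (0.389 in both) and KRT81 (11.5 and 10.2) were low in WT and high in Null. MAL2 (149 and 123 CPM), S100A14 (211 and 158), PROM2 (24.5 and 34.5), ZC4H2 (8.64 and 8.23) and GRHL2 (24.3 and 18) were, in contrast, high in WT and Null and low in Mutant. SEMA3A (6.81 and 4.26) and VIM (0.46 and 0.593 CPM) were low in WT and Null and high in Mutant. The position of WT uses the same Mutant and Null libraries as the calls and is a description with no test.

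**Figure D3:**
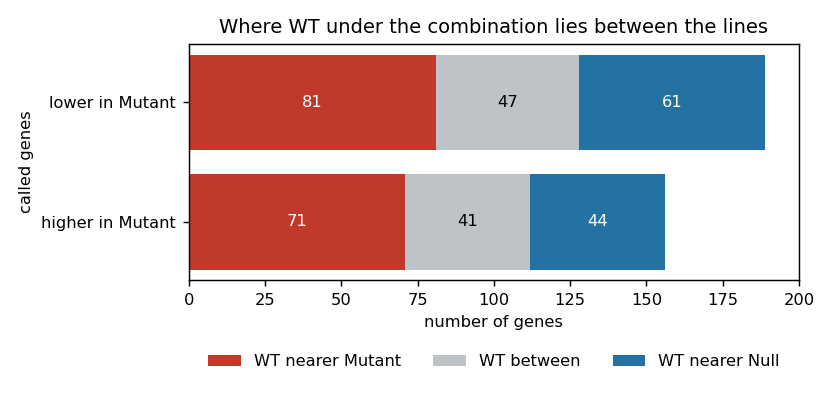
Number of the called genes for which the mean log2 level of WT under the combination lay nearer Mutant (red), between (grey) or nearer Null (blue). Of 156 genes higher in Mutant 71, 41 and 44 fell in the 3 classes, and of 189 lower genes 81, 47 and 61.

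By limma no direct target of p53 was called under the combination. Of 38 tested, 14 differences were positive and 24 negative (median -0.05, 0.07 with CPM as deposited, and -0.20 without Null library 2 or -0.16 without Mutant library 1). A total of 4 had an unadjusted p under 0.05, and edgeR called 0 and DESeq2 called 1. With the GC slope as a covariate 5 were called (13.2%, near the 10.0% of all genes called there), all lower in Mutant, among them CDKN1A (-1.04 ± 0.16, adjusted p = 8.90e-05) and PLK2 (-0.95 ± 0.13, adjusted p = 2.14e-05). CDKN1A, the p53-induced inhibitor of cyclin-dependent kinases, was at 151 and 133 CPM in Mutant and 287 and 294 CPM in Null, against 2044 and 1930.2 CPM in WT. The Mutant libraries were the lowest and the WT libraries far the highest, and the difference between Mutant and Null (-1.22 ± 0.40) did not pass (adjusted p = 0.2). With the replicate number as a block 2 targets were called (5.26%, near the 4.07% of all genes), CDKN1A (adjusted p = 0.0221) and PLK2 (adjusted p = 0.0395). In the other 3 treatments 4 targets were called (10.5%, near the 8.68% of all genes), all lower in Mutant, among them PLK2, a kinase of the stress response (-1.43, adjusted p = 9.64e-05), and PLK3 (-0.91, adjusted p = 0.0216). Under the combination these stood at -0.79 ± 0.33 and -0.91 ± 0.41 (adjusted p = 0.411 and 0.484). Among 18 genes of the p53 family and its regulators none was called by limma, edgeR or DESeq2, and 1 had an unadjusted p under 0.05.

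Interferon-stimulated genes encode antiviral and antigen presentation proteins and are switched on by STAT and IRF factors, which bind a repeated GAAA element. The promoters of EPSTI1 and B2M, the called members of the interferon and MHC class I lists, are shown because both hold this element. Each is 300 bases from RefSeq (GRCh38.p14), 250 before and 50 after the start, 5′ to 3′ on the gene's own strand, with matches to GAAANNGAAA or its reverse complement in capitals.
EPSTI1: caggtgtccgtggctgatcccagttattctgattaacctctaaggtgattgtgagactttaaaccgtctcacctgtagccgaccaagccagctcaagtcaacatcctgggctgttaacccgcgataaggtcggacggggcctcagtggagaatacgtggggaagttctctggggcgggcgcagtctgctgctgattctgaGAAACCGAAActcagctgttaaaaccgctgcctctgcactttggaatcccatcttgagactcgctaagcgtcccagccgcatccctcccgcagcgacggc
B2M: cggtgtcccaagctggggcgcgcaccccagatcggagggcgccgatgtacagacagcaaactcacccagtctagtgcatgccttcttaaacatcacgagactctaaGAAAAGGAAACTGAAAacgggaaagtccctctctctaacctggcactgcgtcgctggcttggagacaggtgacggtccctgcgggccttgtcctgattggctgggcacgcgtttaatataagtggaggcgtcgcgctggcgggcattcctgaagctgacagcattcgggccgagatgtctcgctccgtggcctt
EPSTI1 (chr13:42992192-42992491, minus strand) has 1 match, beginning at -50 from the start. B2M (chr15:44711267-44711566, plus strand) has 2 overlapping matches, the first at -144. The motif occurs in 26 of 42 windows of the interferon list (61.9%) and 9 of 23 of the MHC class I list (39.1%), and in 1255 of all 35116 promoter windows (3.57%). A match describes letters in the window and not a bound site.

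Of 39 interferon-stimulated genes tested 1 was called, higher in Mutant, and 29 differences were positive (list median 0.35). EPSTI1, an interferon-induced protein named for its induction in breast epithelium by stroma, was at 1.16 and 0.862 CPM in Mutant and 0.146 and 0.184 CPM in Null. The libraries did not overlap (1.08 ± 0.21, adjusted p = 0.0128), but no call was left without any 1 of them (adjusted p = 0.0616 to 0.121). UBA7, the enzyme that activates ISG15, was just outside the threshold (1.03 ± 0.25, adjusted p = 0.0506), and IFIT3 (1.09 ± 0.34), PARP9 (1.16 ± 0.42) and OAS1 (1.00 ± 0.39) were further out. Of 19 genes of MHC class I presentation 1 was called and 15 were positive (median 0.38). B2M, the invariant light chain of MHC class I, was at 444 and 324 CPM in Mutant and 202 and 112 CPM in Null, 2.45-fold higher in Mutant without overlap (1.14 ± 0.24, adjusted p = 0.0223). Without any 1 library its adjusted p was 0.0512 to 0.234 and the difference 0.98 to 1.31. PSMB9, a subunit of the immunoproteasome, gave 18.9 and 23.0 CPM against 5.66 and 6.14 CPM (1.56 ± 0.57, adjusted p = 0.295), and it overlaps TAP1 on the other strand (0.09 ± 0.44).

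In the 12 other libraries 15 of the 39 interferon-stimulated genes and 8 of the 19 MHC class I genes were called, all higher in Mutant, with list medians of 0.68 and 0.53. That is 38.5% and 42.1% of the lists, against 8.68% of all genes. Under the combination with the GC slope as a covariate, 11 interferon-stimulated genes were called higher and 1 lower (30.8%). In that setting 8 MHC class I genes were called, all higher (42.1%), against 10.0% of all genes. With the replicate number as a block the shares were 17.9% and 15.8%, against 4.07% of all genes. Treatment by treatment the interferon median was 0.81 in solvent, 0.54 with APR-246, 0.54 after irradiation and 0.35 under the combination. The class I median was 0.60, 0.50, 0.52 and 0.38 in the same order. The median difference was highest in solvent and lowest under the combination for both lists, but without Null library 2 the class I median under the combination was 0.55 and no longer the lowest. The interferon median under the combination was 0.25 to 0.52 without 1 library. With CPM as deposited it was again highest in solvent (0.95 and 0.78) but not lowest under the combination (0.53 for both lists, against 0.47 and 0.45 after irradiation), and whether it differed between treatments was tested gene by gene only. IFIT1, an interferon-induced inhibitor of translation, stood at 20.7 and 16.9 CPM in Mutant and 16.4 and 9.99 CPM in Null under the combination (0.35 ± 0.25, adjusted p = 0.836). In solvent it stood at 7.96 and 4.47 CPM in Mutant and 1.65 and 0.85 CPM in Null. Levels in both lines were higher under the combination than in solvent, and the groups no longer stood far apart. The IFIT1 difference was 1.80 in solvent, 1.55 with APR-246 and already 0.53 after irradiation alone. The change in its line difference, -1.46 ± 0.35, had an unadjusted p of 0.000679 and did not pass over all genes (adjusted p = 1).

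**Figure D4:**
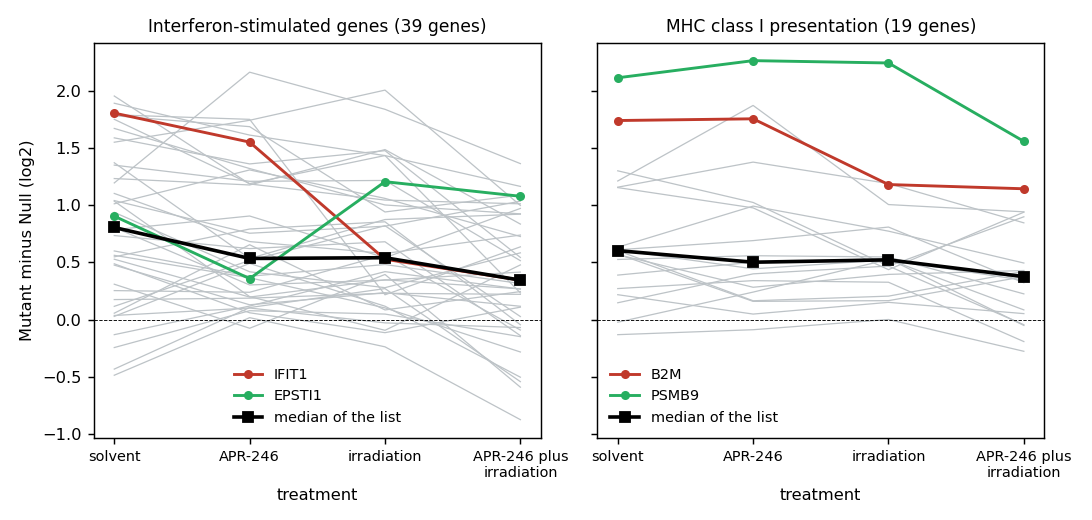
Mutant minus Null difference (log2) of each interferon-stimulated gene (left, 39 genes) and MHC class I gene (right, 19 genes) in each treatment, with thin grey lines for genes and black squares for the list median. The medians lie above 0 in all 4 treatments, from 0.81 and 0.60 in solvent to 0.35 and 0.38 under APR-246 plus irradiation (0.53 and 0.53 with CPM as deposited, where irradiation is lower), and IFIT1 comes down from 1.80 in solvent.

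Of 16 genes of nucleic acid sensing and interferon induction, 1 was higher in Mutant and 2 were lower, with 9 positive and 7 negative differences. Their median was 0.11 (-0.14 to 0.17 without 1 library), and 1.67% of all genes were called. TLR3, an endosomal receptor of double-stranded RNA, was at 2.26 and 0.807 CPM in Mutant and 0.255 and 0.0369 CPM in Null (1.5 ± 0.29, adjusted p = 0.011). It lost the call without Mutant library 1 (1.10, adjusted p = 0.193) or Null library 2 (1.31, adjusted p = 0.166). The type III interferon genes IFNL1 and IFNL2 lay the other way. IFNL1 was at 0.215 and 0.312 CPM in Mutant and 1.24 and 2.28 CPM in Null (-1.64 ± 0.32, adjusted p = 0.0137). After irradiation alone it was at 0.41 and 0.493 CPM in Mutant and 1.48 and 1.32 CPM in Null, again without overlap (-0.96). In solvent and with APR-246 the IFNL1 difference was -0.28 and -0.09. IFNL2 was at 0.215 and 0.11 CPM against 0.438 and 0.645 CPM (-0.75 ± 0.17, adjusted p = 0.0297), and it is nearly identical to IFNL3, so the split of reads between them is uncertain. Both are weakly expressed, neither was called in the other 3 treatments (-0.44 and -0.26, adjusted p = 0.189 and 0.117), and both lost the call without Mutant library 1, Mutant library 2 or Null library 2 (adjusted p = 0.0768 to 0.398). ICAM1, an adhesion molecule and target of NF-kB, was higher in Mutant (4.35 and 3.67 CPM against 0.493 and 0.719 CPM, 1.88 ± 0.35, adjusted p = 0.00951). It was 1 call among 22 NF-kB targets and cytokines (16 positive, median 0.43), and was lost without Mutant library 1, Mutant library 2 or Null library 1. Of this list edgeR called 1 gene and DESeq2 called 4. With the GC slope as a covariate 6 were called, all higher in Mutant (27.3%, against 10.0% of all genes). With the replicate number as a block 6 were called, all higher (27.3%, against 4.07% of all genes).

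Cholesterol genes were mostly lower in Mutant in value, yet the called one was higher. SQLE, squalene epoxidase, was at 64.2 and 37.5 CPM in Mutant and 19.2 and 8.11 CPM in Null (1.75 ± 0.30, adjusted p = 0.00548). Of 24 genes tested 21 had negative differences (median -0.77), none of them called, for example INSIG1, a sterol-sensing regulator (-1.26 ± 0.42, adjusted p = 0.211). In the other 3 treatments SQLE was again the single higher gene and 9 were called lower (median -0.79). Together they were 41.7% of the list, against 8.68% of all genes. With the GC slope as a covariate 1 cholesterol gene was called higher and 7 lower under the combination (33.3%, against 10.0% of all genes). SQLE lost its call without Mutant library 1 (1.55, adjusted p = 0.0987) or Null library 2 (1.41, adjusted p = 0.106). In the hypoxia and glycolysis list of 31 genes 1 was called, SLC2A3, the glucose transporter GLUT3. It was at 2.97 and 1.94 CPM in Mutant and 24.5 and 14.2 CPM in Null, 7.86-fold lower without overlap (-2.89 ± 0.32, adjusted p = 9.59e-05).

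Genes of developmental pathways were mostly lower where called. RNF43, a ligase that removes WNT receptors, was lower in Mutant (-1.32 ± 0.31, adjusted p = 0.0433) and was 1 call among 21 WNT targets, of which 20 were negative (median -0.48). AXIN2, the WNT feedback scaffold, was at -1.85 ± 0.57 without passing (adjusted p = 0.166). In the other 3 treatments 6 WNT targets were called (28.6%, against 8.68% of all genes), all lower. With the GC slope as a covariate 6 were called under the combination (28.6%, against 10.0% of all genes), all lower. SMAD7, the feedback inhibitor of TGF-beta signalling (-1.90 ± 0.41, adjusted p = 0.026), and LTBP2, a protein of the latent TGF-beta binding family (-1.17 ± 0.25, adjusted p = 0.0209), were lower among 23 BMP and TGF-beta genes (median -0.03, and -0.22 without Mutant library 1). Of 23 YAP and TEAD targets IGFBP3 was higher and F3, tissue factor, lower (-2.23 ± 0.51, adjusted p = 0.0364). Their median was -0.37 (-0.29 to -0.12 without 1 library), with 10 positive and 13 negative differences. In the other 3 treatments 2 of them were called higher and 9 lower (47.8%, against 8.68% of all genes). With the GC slope as a covariate 1 was higher and 6 lower under the combination (30.4%, against 10.0% of all genes). RNF43 and F3 lost the call without any 1 library (adjusted p = 0.15 to 0.265 and 0.125 to 0.282), and SMAD7 and LTBP2 without either Mutant library or Null library 2 (0.0974 to 0.29). PEG10, an imprinted gene derived from a retrotransposon, was at 48.1 and 24 CPM in Mutant and 9.18 and 2.30 CPM in Null (2.56 ± 0.48, adjusted p = 0.0106). Without Mutant library 1 or Null library 2 its call was lost (2.25 and 1.90, adjusted p = 0.141 and 0.181). The remaining 2 lists with a call gave 1 lower gene each, BCL2L15 of the BCL2 family (-1.59 ± 0.30, adjusted p = 0.0111, lost without Mutant library 2 or either Null library, 0.0772 to 0.181) and MAGEC1 of the cancer-testis antigens (-0.58 ± 0.13, adjusted p = 0.0378, lost without any 1 library, 0.095 to 0.407).

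The programmes nearest to the treatments themselves held no call by limma or edgeR without a covariate. None of 33 ATF4 and amino acid stress genes, 28 NRF2 and glutathione genes or 20 ferroptosis and iron genes was called, with list medians of -0.18, -0.07 and -0.20. The same held for 35 DNA replication genes (-0.03), 34 genes of G2/M and mitosis (-0.02), 27 of homologous recombination and the Fanconi pathway (0.11), 26 replication-dependent histones (0.14), 20 heat shock chaperones (-0.02) and 22 chaperones of the endoplasmic reticulum (0.07). An unadjusted p under 0.05 was found for 2, 3, 0, 0, 1, 1, 4, 0 and 0 members of these 9 lists in the order given, and DESeq2 called 1 NRF2 gene. With the GC slope as a covariate 13 of the 245 members were called (5.31%, against 10.0% of all genes). The medians moved when 1 library was left out, for G2/M to -0.33 and for homologous recombination to -0.19 without Null library 2, and for ATF4 to -0.46 without Null library 1. Over the 9 lists they lay between -0.46 and 0.45 without 1 library. Among those lists AKR1C3, an NRF2-driven reductase, came nearest (0.82 ± 0.24, adjusted p = 0.121). With CPM as deposited the medians of the NRF2, replication, G2/M and heat shock lists turned positive (0.10 to 0.16). There was no call either among 20 aminoacyl-tRNA synthetases (median -0.09), 21 genes of nucleotide supply (-0.08), 6 metallothionein genes and their regulators (0.17), 26 EGFR ligands and ERK outputs (0.00), 18 CEACAM and mucin genes (-0.21), 17 immune checkpoint ligands (-0.17), 9 multidrug efflux pumps (0.32) or 13 mitochondrially encoded mRNAs (0.13), where limma gave 0 to 4 members an unadjusted p under 0.05 and DESeq2 called 1 checkpoint ligand and 1 efflux pump. Ribosomal protein genes, 40 of them and none called, had 37 negative differences (median -0.34, and -0.09 in the other 3 treatments). Their median was -0.07 without Mutant library 1, -0.15 without Null library 2, -0.62 without Mutant library 2 and -0.59 without Null library 1. Over the lists together, not counting cell type markers, 787 genes were tested and 27 were called (12 higher, 15 lower), which is 3.43% against 1.67% of all genes. The lists were chosen with earlier results of these data known, so the 2 shares are a description with no test. The median standard error of a difference was 0.32 over all genes.

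**Figure D5:**
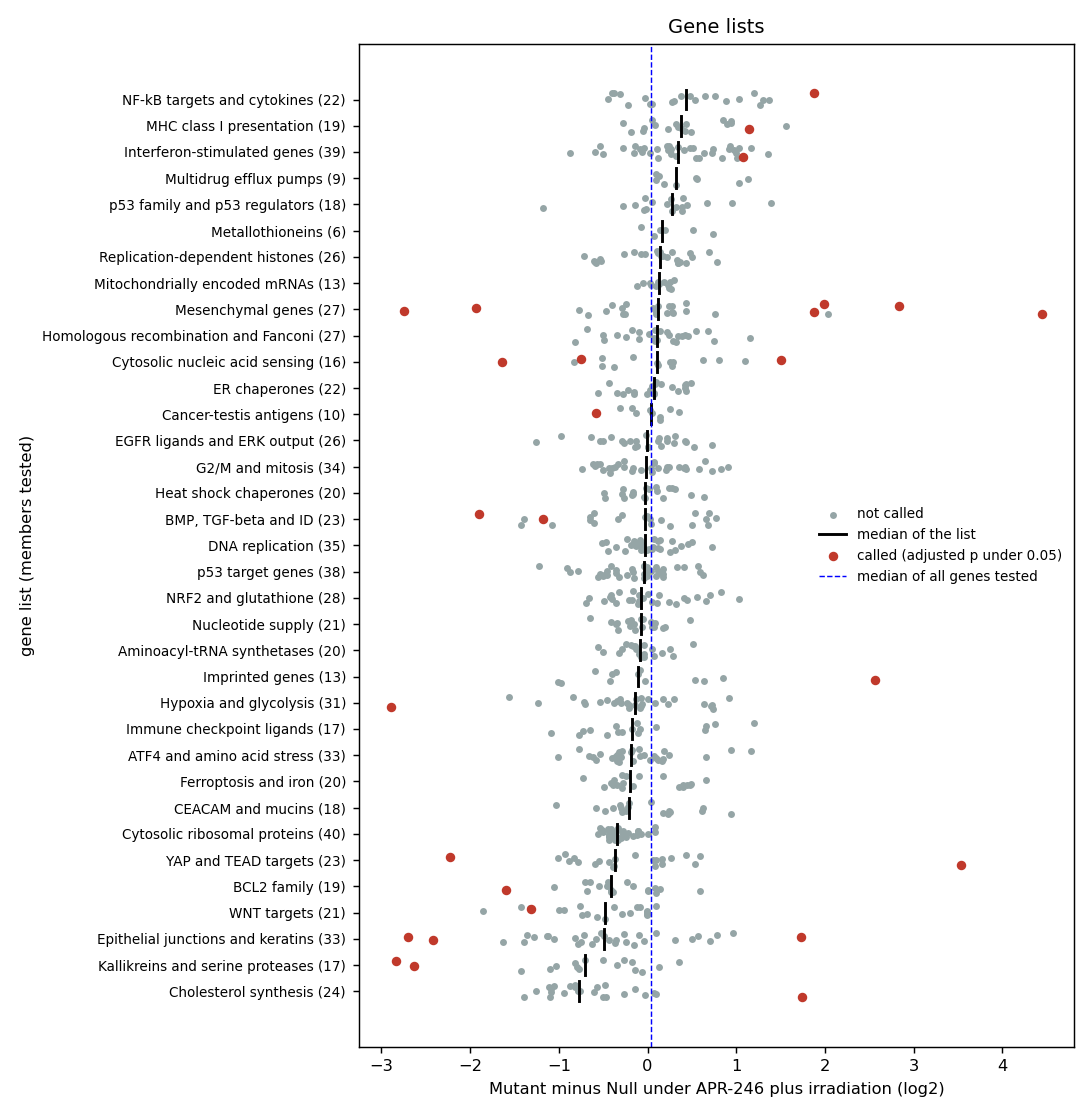
Mutant minus Null difference (log2) under APR-246 plus irradiation of every tested member of each gene list (grey, not called; red, adjusted p under 0.05), with a black bar at the list median and a dashed line at the median of all genes (0.04). Red points are few in every list, 6 in the mesenchymal list on both sides of 0, and the cholesterol list has the lowest median (-0.77) with its red point on the other side.

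Whether the line difference itself depended on the treatment was tested as a difference of differences. Against solvent no gene was called (0.0% of 20668; 455 genes at an unadjusted p under 0.05 by limma, 0 called and 372 by edgeR, 0 called and 474 by DESeq2). Against the mean of the other 3 treatments none was called either (0.0%; 366, 306 and 400 genes at an unadjusted p under 0.05). The median standard error of these terms was 0.45 and 0.37, larger than for the direct comparison, so the absence of calls does not show that the line difference was the same in every treatment. Among the genes with the smallest p, FGFBP1, a carrier that releases FGFs from the matrix, was at 0.887 and 0.589 CPM in Mutant and 24.5 and 24.7 CPM in Null in solvent. Under the combination it was at 2.37 and 2.57 CPM in Mutant and 23.0 and 8.29 CPM in Null. Mutant values were higher under the combination, Null library 1 was near its solvent level and Null library 2 was well below it, and the term was 2.08 ± 0.51 (unadjusted p = 0.000929). CCN2, a secreted YAP target, was at 4.20 and 3.25 CPM in solvent and 13.2 and 11.7 CPM under the combination in Mutant, and at 30.3 and 17.5 and then 26.5 and 17 CPM in Null (1.72 ± 0.39, unadjusted p = 0.000401). Mutant levels were thus higher with treatment and Null levels overlapped. FOXL1, a forkhead factor, went the other way (-1.77 ± 0.40, unadjusted p = 0.000462), from 18.4 and 22.6 to 15.1 and 8.98 CPM in Mutant and from 8.54 and 5.36 to 14.7 and 12.9 CPM in Null. SERTAD4 was at 0 in both Mutant libraries of solvent and of the combination, while Null stood at 0.827 and 0.052 and then at 2.48 and 1.53 CPM (-1.61 ± 0.34, unadjusted p = 0.000251). SFTA1P, also at 0 in Mutant, was at 3.92 and 2.27 and then at 1.20 and 1.11 CPM in Null (1.14 ± 0.25), so for these 2 genes the term reflects Null alone. Against the mean of the other 3, MTMR8, a phosphoinositide phosphatase relative, had the smallest p (-1.15 ± 0.24, unadjusted p = 0.000195).

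With the GC slope of each library as a covariate, 11 genes were called against solvent (0.0532%). The line difference moved upward for AMOTL2 (1.65 ± 0.28), TFRC (1.14 ± 0.19), PLK2 (1.05 ± 0.18), CCN2 (1.71 ± 0.29), RPS6KL1 (1.31 ± 0.24) and ENSG00000272512 (1.43 ± 0.27). It moved downward for SSTR5-AS1 (-2.09 ± 0.35), FOXL1 (-1.78 ± 0.31), SECTM1 (-1.48 ± 0.28), IFIT1 (-1.46 ± 0.28) and EFNB2 (-1.31 ± 0.23). The slope was itself estimated from the expression values of these libraries. Without it limma called none of the 11. TFRC (1.09 ± 0.68, unadjusted p = 0.126) and SECTM1 (-1.39 ± 1.09, unadjusted p = 0.22) then missed even an unadjusted 0.05. The rest had unadjusted p-values of 0.000401 to 0.0429. AMOTL2, which restrains YAP, was at 61.5 and 53.8 CPM in Mutant in solvent and 117 and 84.8 CPM under the combination, and at 374 and 246 and then 177 and 148 CPM in Null. The lines were closer to each other under the combination, with both Null libraries still above both Mutant libraries. They were also closer in the single treatments. Without the covariate the AMOTL2 difference was -2.56 in solvent, -1.20 with APR-246, -0.97 after irradiation and -0.89 under the combination. For each of the 11 genes the difference after irradiation alone lay nearer to that under the combination than to that in solvent. SECTM1, an interferon-inducible ligand, was at 36.9 and 79.5 and then 69.3 and 103.5 CPM in Mutant, and at 1.98 and 3.14 and then 6.73 and 19.6 CPM in Null. The mean of each line was higher under the combination, in Null by the larger factor, but the Mutant libraries of solvent and combination overlapped. Mutant and Null still did not overlap. The adjusted p-values of the 11 lay between 0.026 and 0.048, and the same setting called 2073 genes (10.0%) in the direct comparison.

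No marker of another cell type was called by limma, edgeR or DESeq2 (1 blood, 1 fibroblast and 0 endothelial markers had an unadjusted p under 0.05). The 15 blood cell markers added up to 5.11 to 5.50 CPM in Mutant and 6.47 to 6.99 CPM in Null, the 10 fibroblast markers to 22.5 to 47.8 and 37.2 to 46.2 CPM, and the 9 endothelial markers to 234 to 337 and 198 to 358 CPM. None was at 0 in all 4 libraries, and 3 markers of each list reached 1 CPM. The 12 markers of colorectal epithelium added up to 5993 to 8498 CPM in Mutant and 11762 to 16068 CPM in Null, with no overlap. Of these, 8 reached 1 CPM, and of the 11 tested none was called by limma or edgeR and 2 were by DESeq2. By limma 3 had an unadjusted p under 0.05, and 10 differences were negative (median -0.58), in the direction of the epithelial list. These markers share genes with that list, CDH1 and CLDN7 among them, so their direction is not independent of it. Their part in the other results was not tested.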

How the data were processed

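Reads were checked, aligned and counted by the authors with FastQC, STAR and featureCounts (Subread) on GRCh38.p13, per the submitters' processing notes. Versions, annotation release and counting strand are not given in the sources used here. The deposited values are CPM of reads assigned to genes, for 60675 gene ids. Dividing by the smallest step gave whole reads (within 0.05 of a read) for 100% of values. Even counts made up 74.5 to 81.5% of values of 2 to 9 reads, so mates seem to have been counted singly, and a limit of 3 reads covers counting error only.

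Genes kept by filterByExpr (count minimum 10) were fitted with limma-trend (robust; limma 3.58.1, edgeR 4.0.16, R 4.3.3) on log2(TMM-scaled CPM + 0.5), a scale that understates differences of low genes. All 24 libraries entered 1 fit with 12 group coefficients and 12 residual degrees of freedom, which was also tested on simulated data. Alternatives included edgeR, DESeq2 1.42.0, other scalings, filters and pseudocounts, a replicate block, a GC slope covariate and leaving out libraries. A gene was called at an adjusted p under 0.05. Coordinates and gene types come from GENCODE 29.

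The genes described are the 12 largest called differences each way (symbol, mean of at least 1 CPM in either group, no overlap), up to 6 members of each list with the smallest p, and up to 8 genes each way with the smallest p in each difference of differences. The members and the 39 lists were chosen with earlier results of these data known. A further gene named by that rule is not reported here.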

Additional observations from a re-analysis of the deposited data

How the results depend on the processing

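The direct comparison called 345 genes. It called 229 with a mean of at least 1 CPM required, 189 by edgeR (183 of them shared), 539 by DESeq2 (292 shared), 841 with a replicate block, 2073 with the GC slope, 1989 with the replicate block and GC slope together, and 37 when only the groups compared entered the fit (fewer residual degrees of freedom). Leaving out 1 library gave 105 to 196. All 345 were among those called with the replicate block and with the GC slope. CPM as deposited gave 143 higher and 135 lower, against 156 and 189. In the other 3 treatments 1794 genes were called, 3558 with the replicate block, 6326 with the GC slope, 6287 with both, and 1268 to 1720 without 1 library. For the combination less solvent 0 genes were called, 9 with no filter, 11 with the GC slope, 22 with the replicate block and GC slope, and 0 to 1 without 1 library (1 without Null solvent library 1, 1 without Null solvent library 2). For the combination less the mean of the other 3, 0 were called, 27 with no filter, and 0 to 0 without 1 library. The cause of these shifts was not tested. Over the 49 called genes among the 24 largest and the list members, 827 settings gave 688 with the call kept, 139 with the same direction but no call, and 0 with the other direction. Among the list medians 188 of 273 settings were within the spread of the main value and 85 were not.

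Replicate numbers deviated together in 55 of 66 pairs of groups (r over 0.1, median 0.629, and 0.757 between Mutant and Null combination), but not in every pair (lowest -0.56), and the labels tie no number to a shared culture, so the replicate block is an alternative only. With it CDKN1A and PLK2 among 38 p53 targets were called, lower in Mutant, and 2 of 245 members of the 9 treatment-related lists. The block left the call of all 49 genes in place. With 2 libraries a group, 1 library decides many calls, and weakly expressed genes rest on few reads.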

Other observations

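Neighbouring genes gave calls in both directions, chosen here after their values were seen. On chromosome 1, S100A4 (153543613 to 153550136) was higher in Mutant by 2.84 ± 0.47 and S100A14 (153614255 to 153616986) lower (-3.77 ± 0.39). On chromosome 4, PROM1 (15963076 to 16084378) was higher by 3.39 ± 0.40 and the adjacent FGFBP1 (15935569 to 15938740) lower (-2.44 ± 0.36, adjusted p = 0.00175). FGFBP1 was at 2.37 and 2.57 CPM in Mutant and 23.0 and 8.29 CPM in Null. On chromosome 6, the butyrophilins BTN3A2 (1.54 ± 0.23, adjusted p = 0.00205) and BTN3A3 (2.88 ± 0.38, adjusted p = 0.000578), of a family involved in the response of gamma-delta T cells to phosphoantigens, were both higher in Mutant. They are close copies of each other, so their split of reads is uncertain. Further along that chromosome MARCKS (1.89 ± 0.30, adjusted p = 0.00303) and the histone deacetylase gene HDAC2 (1.73 ± 0.35, adjusted p = 0.0173) were higher together. MARCKS lost the call without Null library 2 (adjusted p = 0.0554), and HDAC2 without any 1 library (0.0512 to 0.2).

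Of 27 protein-coding keratin genes tested outside the epithelial list, counted after values were seen and so with no test, 8 were called lower in Mutant (KRT81 among them), 0 were called higher, and 26 differences were negative (median -0.84). KRT23, in the epithelial list, was called higher. On chromosome 12, KRT6A, a keratin of wounded epithelium, was at 0.233 and 0.312 CPM in Mutant and 4.01 and 5.01 CPM in Null (-2.81 ± 0.39, adjusted p = 0.000976). KRT6B, its near copy, was also lower (-1.1 ± 0.19, adjusted p = 0.00584, lost without Mutant library 2 or Null library 2, 0.0768 and 0.0999). On chromosome 17, KRT13 (-1.97 ± 0.41, adjusted p = 0.0211) and KRT14, a basal keratin (-2.22 ± 0.50, adjusted p = 0.0304), were lower as well. KRT13 lost the call without either Mutant library or Null library 2 (0.129 to 0.29), and KRT14 without any 1 library (0.0573 to 0.31). CASP4, the inflammatory caspase that senses bacterial lipopolysaccharide, was at 15.4 and 10.3 CPM in Mutant and 1.37 and 1.22 CPM in Null (2.71 ± 0.27, adjusted p = 2.45e-05), and at 15.3 and 13.5 CPM in WT.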
